A study of Mus musculus with 8 samples.

Results

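PCGF1 works in a variant Polycomb complex called PRC1.1, and this account follows the RNA of *Pcgf1* and its known partners in hematopoietic progenitors that lose *Pcgf1*. The genes were taken by name: *Pcgf1*, *Kdm2b*, *Bcor*, *Bcorl1*, *Rybp*, *Yaf2*, *Usp7*, *Skp1a*, *Ring1* and *Rnf2*, which are 10 of the 23284 gene symbols listed. PRC1 complexes are E3 ligases that place ubiquitin on histone H2A, and RING1 and RNF2 (also called RING1A and RING1B) are their interchangeable catalytic subunits. In PRC1.1, PCGF1 pairs with BCOR or its relative BCORL1, while KDM2B brings the complex to CpG islands through a CXXC zinc finger that binds unmethylated CpG. RYBP and YAF2 are interchangeable subunits that stimulate the ligase, SKP1 joins through the F-box of KDM2B, and USP7 is a deubiquitinase that associates with the complex.

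Poly(A) RNA was sequenced from 2 cell types of B6CBAF1/J mice, with 2 control and 2 *Pcgf1*-KO libraries of each. IdHPCs are bone marrow LSK progenitors held in culture by the transcriptional inhibitor Id3 and grown on TSt4 stromal cells with IL7, SCF and Fl3L, and the LMPPs, lymphoid-primed multipotent progenitors, were isolated from bone marrow. Control cells carried *Pcgf1* fl/fl, and *Pcgf1*-KO cells carried ERT2-Cre with *Pcgf1* fl/fl, in which 4-OHT removes exons 2 to 7. Both LMPP groups were cultured with 4-OHT for 4 days, as were the *Pcgf1*-KO IdHPCs, whereas the methods do not state this for the control IdHPCs. For LMPPs measured by RT-qPCR, the study states that this culture was on TSt-4 stromal cells with the same cytokines. The study describes its RNA-seq replicates as independent biological ones, and the labels do not name the mice or cultures behind each library.

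Values are CPM, the reads of an exon scaled to the same library total, and each of the 2 tables was tested alone because they were normalized separately. Library depth was 15717645 to 25292626 reads on distinct exons for IdHPCs and 9611759 to 12569296 for LMPPs. The CPM were scaled to the sum over all listed exons, repeats included, which was 13209167 to 34898845 reads per library, so 1 read was worth 0.0287 to 0.0757 CPM. Reads on exons 2 to 7 of *Pcgf1* numbered 193 and 173 in the control IdHPCs and 15 in each *Pcgf1*-KO library. In LMPPs they went against 2 labels. The library labelled control 1 had 84 and the library labelled KO 1 had 76, while the libraries labelled control 2 and KO 2 had 0 each. A count of 0 allows up to 3 reads. LMPP comparisons were therefore made by label and, separately, between the 2 libraries without and the 2 libraries with reads on these exons. The second grouping was drawn from the data and is not a genotype, and *Pcgf1* itself is not tested in it. It also coincides with the replicate number, so the presence of these reads cannot be told apart from anything else that the number marks.

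The labelled cell types were checked by marker lists. The 8 progenitor genes (*Ptprc*, *Kit*, *Flt3* and others) summed to 1504 to 1973 CPM in IdHPCs and 2149 to 2282 CPM in LMPPs. The 20 stromal genes summed to 4014 to 4830 CPM in control IdHPCs and 7008 to 9436 CPM in *Pcgf1*-KO IdHPCs. *Lum* and *Dcn* were at 0. Of the 18 tested, 17 were above 0 in log2 difference and 2 were called higher by limma, beside 0.244% of all genes. Their median log2 difference was 0.98, against 0.0058 for all genes. The part of stromal RNA in the IdHPC values given below was not tested. In LMPPs the stromal sum was 68.7 to 105 CPM.

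Per kb of the longest annotated transcript, *Skp1a* was the most abundant member in both cell types. In the 2 control IdHPC libraries, the mean level was 74.3 CPM per kb for *Skp1a* and 30.2 for *Usp7*. *Bcor* at 11.2, *Ring1* at 10.9, *Kdm2b* at 10.7 and *Rnf2* at 10.6 CPM per kb formed a middle group whose neighbors overlapped between libraries. *Pcgf1* followed at 8.83 CPM per kb. *Yaf2* at 6.35 and *Rybp* at 6.20 CPM per kb overlapped, and *Bcorl1* was the lowest at 2.24. Over all 4 LMPP libraries, *Skp1a* had 77.9 and *Usp7* 32.0 CPM per kb, and *Usp7* overlapped with *Bcor* at 27.0. *Bcor* overlapped in turn with *Kdm2b* at 19.3 CPM per kb. *Yaf2* at 12.4, *Ring1* at 11.4 and *Rnf2* at 10.4 came next, each overlapping with its neighbor. *Pcgf1* at 5.08, *Bcorl1* at 3.10 and *Rybp* at 2.74 CPM per kb were the lowest, and each overlapped with the next. These means pool libraries that differ. With reads on *Pcgf1* exons 2 to 7, *Pcgf1* had 9.24 and 7.65 CPM per kb, *Rybp* 2.68 and 2.89, and *Bcorl1* 1.95 and 2.17. Without them, *Bcorl1* had 4.49 and 3.78 CPM per kb, *Rybp* 3.18 and 2.21, and *Pcgf1* 1.32 and 2.09. *Rybp* thus lay above *Bcorl1* in the former libraries and below it in the latter. *Bcor* lay below *Usp7* in the libraries with the reads (19.6 and 23.5 against 33.4 and 32.0 CPM per kb) and slightly above it in those without (34.4 and 30.6 against 33.7 and 29.0). The order also moved with the exon length used. Per kb of all annotated exons, *Bcor* came before *Usp7* in LMPPs, at 26.1 and 20.3, and *Kdm2b* dropped to 4.78 in control IdHPCs and 8.59 in LMPPs.

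**Figure D1:**
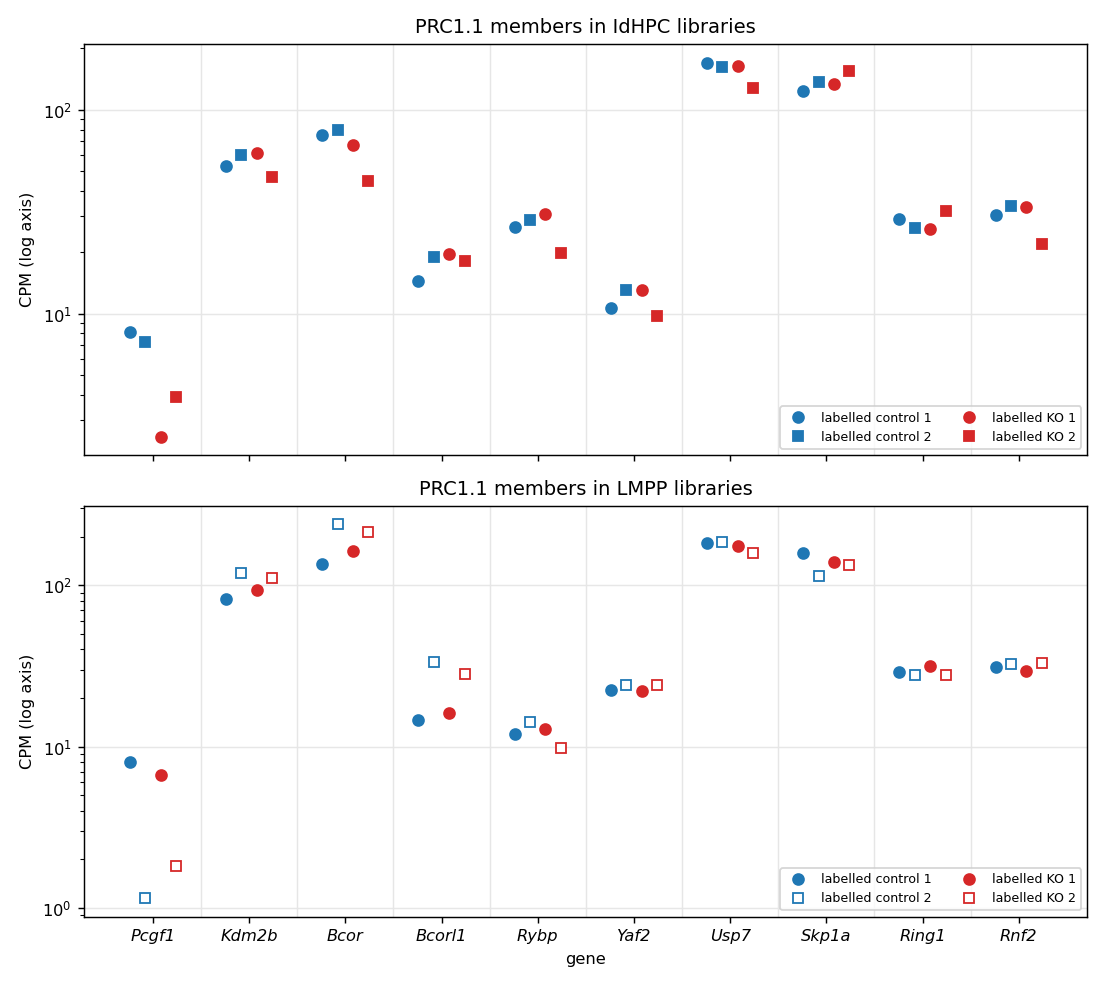
CPM of the 10 genes in each IdHPC (top) and LMPP (bottom) library on log axes, with 1 point per library. Blue marks the control label and red the KO label, circles mark replicate number 1 and squares number 2, and open symbols mark libraries with 0 reads on *Pcgf1* exons 2 to 7. In LMPPs the open symbols lie above the filled ones for *Kdm2b*, *Bcor* and *Bcorl1*, whatever the label. The same holds by a smaller margin for *Yaf2* and *Rnf2*, which did not pass the test.

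In IdHPCs the question was whether partners of PCGF1 changed when *Pcgf1* was deleted. The level of *Pcgf1* was 8.14 and 7.22 CPM in control libraries, compared with 2.49 and 3.91 CPM in *Pcgf1*-KO. The groups did not overlap, with a log2 fold change of -1.07 on the log2(CPM + 1) scale (SE 0.30; limma, adjusted p = 0.126). This call depends on the model. With the replicate number as a block, a pairing that the labels do not state, *Pcgf1* passed (limma, adjusted p = 0.0252). None of the 9 partners passed the test: 0 of 9 were called by limma, by edgeR (quasi-likelihood and exactTest) and by DESeq2, and 0 had an unadjusted limma p under 0.05, beside 14.5% of all genes. Among all 12272 genes tested, limma called 61 (0.497%), with 0.244% higher and 0.253% lower, and edgeR's quasi-likelihood test, exactTest and DESeq2 called 125, 609 and 494. The median log2 fold change was -0.07 for the partners and 0.0058 for all genes, and 3 partners lay above 0 and 6 below.

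Of the catalytic subunits, *Ring1* (chromosome 17) had 29.1 and 26.4 CPM in controls and 25.9 and 31.9 CPM in *Pcgf1*-KO. *Rnf2* had 30.6 and 33.9 CPM in controls and 33.4 and 21.9 CPM in *Pcgf1*-KO. Both genes overlapped between the groups, and the low *Rnf2* value was that of the second *Pcgf1*-KO library. The log2 fold change was 0.05 for *Ring1* (95% interval -0.48 to 0.58) and -0.24 for *Rnf2* (-0.83 to 0.34).

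*Rybp*, the RING1-binding subunit, had 26.5 and 28.7 CPM in controls and 30.7 and 19.9 CPM in *Pcgf1*-KO. Its relative *Yaf2* had 10.7 and 13.1 CPM in controls and 13.03 and 9.69 CPM in *Pcgf1*-KO. In each case the first *Pcgf1*-KO library was above the mean of the controls and the second was below both. The log2 fold changes were -0.15 for *Rybp* (95% interval -0.75 to 0.44) and -0.07 for *Yaf2* (-0.68 to 0.55). The study's lists of genes bound by PCGF1 hold 481 genes in C1, which carries H3K27me3, and 815 in C2, which lacks it. *Rybp* stands in C1, and *Kdm2b*, *Yaf2* and *Rnf2* stand in C2. The remaining members, *Bcor* and *Bcorl1* among them, stand in neither list.

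*Kdm2b* had 53.2 and 59.7 CPM in controls and 61.6 and 46.8 CPM in *Pcgf1*-KO. *Skp1a*, the F-box adaptor, had 124 and 137 CPM in controls and 133 and 155 CPM in *Pcgf1*-KO. These groups overlapped, with log2 fold changes of -0.07 (95% interval -0.59 to 0.45) for *Kdm2b* and 0.14 (-0.32 to 0.61) for *Skp1a*. *Usp7* had 170.3 and 162 CPM in controls and 164 and 128 CPM in *Pcgf1*-KO, a log2 fold change of -0.19 (95% interval -0.67 to 0.29). With a single library left out, it ran from -0.37 to -0.02 for *Usp7* and from 0.03 to 0.25 for *Skp1a*.

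*Bcor*, the corepressor that binds PCGF1 directly, was the only partner whose groups did not overlap. It had 75.3 and 80.0 CPM in controls and 67.4 and 44.9 CPM in *Pcgf1*-KO, a log2 fold change of -0.49 (SE 0.25, 95% interval -1.03 to 0.06; limma, adjusted p = 0.401). Of all genes tested, 21.4% did not overlap in this direction, against 1 of 9 partners, and 25.6% did not overlap in the higher direction, against 0 of 9. Lower values without overlap were found at 9 of the 17 distinct exons of *Bcor* (chromosome X, 11613866 to 11737481, minus strand, mm9), and at 23.3% of the exons of all tested genes. The sum over these exons already did not overlap, so the exon count adds no separate support. The log2 fold change of *Bcor* was -0.20 without the second *Pcgf1*-KO library and -0.78 without the first, fits in which the lone *Pcgf1*-KO library is assumed to vary like the controls. Its relative *Bcorl1* had 14.4 and 18.9 CPM in controls and 19.6 and 18.2 CPM in *Pcgf1*-KO, with a log2 fold change of 0.18 (95% interval -0.39 to 0.75). Both genes are X-linked. *Xist*, the RNA of the inactive X, had 1046 and 1445 CPM in controls and 585 and 546 CPM in *Pcgf1*-KO. The Y-linked *Eif2s3y* had 3.37 and 3.12 CPM in controls and 8.57 and 6.49 CPM in *Pcgf1*-KO, also without overlap, *Uty* had 0.704 and 0.917 CPM against 1.90 and 1.27 CPM, and *Kdm5d* overlapped. The stromal sums given above also differed between the groups. The part of any of these in the values of *Bcor* or of the other partners was not tested. Fewer cells of a type and less RNA per cell cannot be told apart in bulk RNA.

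The second *Pcgf1*-KO library decided several of these signs. It had the fewest reads of the IdHPC libraries and the largest share of reads falling on the last exon at the 3′ side of each gene, 29.6% against 24.4% to 26.1%. Without it the log2 fold changes were 0.12 for *Kdm2b*, 0.15 for *Rybp*, 0.13 for *Yaf2*, 0.05 for *Rnf2* and -0.09 for *Ring1*. When the 3′ exon of every gene was left out instead, they were -0.68 for *Rybp*, -0.27 for *Yaf2*, -0.27 for *Kdm2b* and -0.38 for *Usp7*, and none of the partners passed the test.

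By label, no LMPP difference passed the test for any partner. None of the 9 was called by limma, edgeR or DESeq2, and 0 had an unadjusted limma p under 0.05. Over all 12136 genes 0 were called (0.0%) and 1 had an unadjusted p under 0.05. The log2 fold changes of the partners ran from -0.19 for *Rybp* to 0.06 for *Ring1*, with a median of -0.01. *Usp7* was the only one whose labelled groups did not overlap, with 183 and 185 CPM under the control label and 176 and 159 CPM under the KO label. Its log2 fold change was -0.14 (SE 0.11; limma, unadjusted p = 0.270, adjusted p = 0.99997), and 6.25% of all genes did not overlap in this direction and 5.92% in the other. *Pcgf1* had 8.04 and 1.15 CPM under the control label and 6.66 and 1.82 CPM under the KO label, so the spread within each label was far larger than the difference between labels. Each label group mixed a library with and a library without reads on *Pcgf1* exons 2 to 7. The comparison by label therefore cannot show whether partners differ when these reads are absent.

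Between the LMPP libraries without and with reads on *Pcgf1* exons 2 to 7, *Bcorl1*, *Bcor* and *Kdm2b* were higher where the reads were absent. Thus 3 of 9 partners were called higher and 0 lower, beside 10.1% of all genes called higher and 7.09% called lower. Among the partners, 5 did not overlap in the higher direction, where 26.7% of all genes did not, and 2 did not overlap in the lower direction, where 29.9% did not. The median log2 difference was 0.11 for the partners and -0.02 for all genes. For reference, *Pcgf1* had 8.04 and 6.66 CPM in the libraries with these reads and 1.15 and 1.82 CPM in those without.

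**Figure D2:**
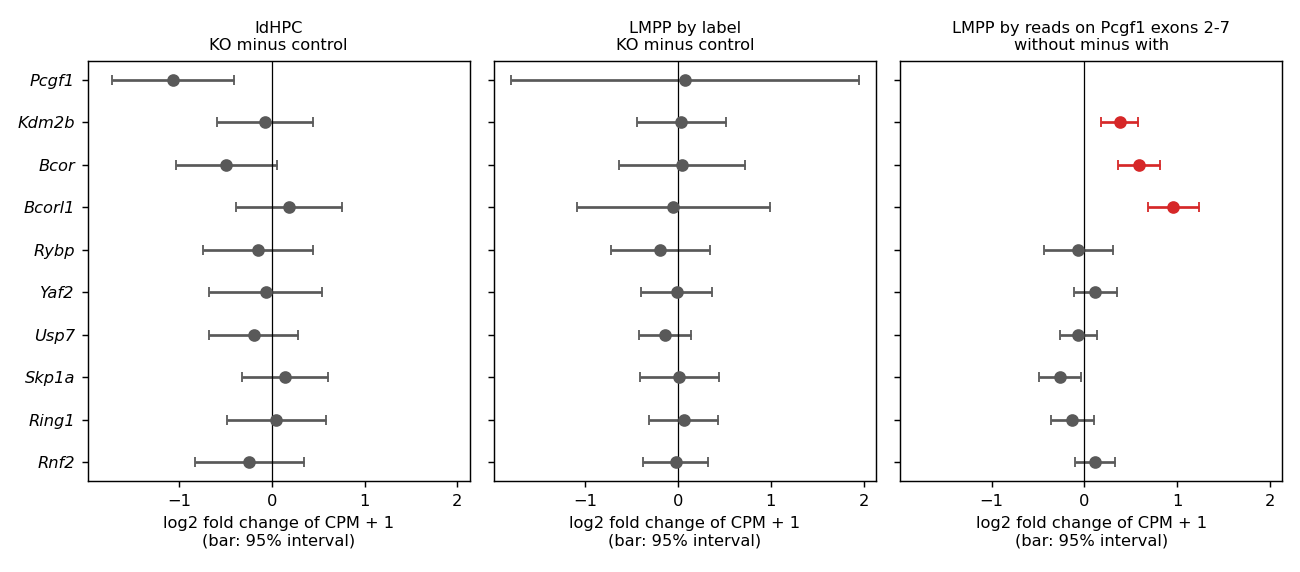
Log2 fold change of CPM + 1 for each gene in the 3 comparisons, with bars for the 95% interval of the limma fit; red marks an adjusted p under 0.05. The called partners, *Bcorl1* at 0.96, *Bcor* at 0.59 and *Kdm2b* at 0.38, appear in the right panel, where *Pcgf1* is left out because its reads define the groups.

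*Bcorl1* (chromosome X, 45694535 to 45761226, plus strand, mm9) had 14.5 CPM in the library labelled control 1 and 16.1 CPM in that labelled KO 1. It had 33.4 CPM in the library labelled control 2 and 28.2 CPM in that labelled KO 2. Both libraries without the reads thus lay above both with them. The ratio of means was 2.01 and the log2 difference 0.96 (SE 0.12, 95% interval 0.68 to 1.23; limma, adjusted p = 6.18e-04).

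*Bcor* had 136 and 163 CPM in the libraries with the reads, labelled control 1 and KO 1. In the libraries without them, labelled control 2 and KO 2, it had 239 and 213 CPM. Again the groups did not overlap, with a ratio of means of 1.51 and a log2 difference of 0.59 (SE 0.10, 95% interval 0.37 to 0.82; limma, adjusted p = 0.00296). In IdHPCs both *Pcgf1*-KO libraries lay below both controls for the same gene, and the difference between these contrasts was not tested.

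*Kdm2b* (chromosome 5, 123320677 to 123465089, minus strand, mm9) had 82.7 and 93.5 CPM with the reads and 118.9 and 111 CPM without. The ratio of means was 1.30 and the log2 difference 0.38 (SE 0.09, 95% interval 0.18 to 0.58; limma, adjusted p = 0.0163). This call was lost without the library labelled control 1 (adjusted p = 0.141) and without that labelled control 2 (adjusted p = 0.0882). *Kdm2b* overlaps *Orai1* and a noncoding RNA on the other strand, and reads of overlapping genes cannot be told apart without strand.

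The promoters of the genes that were higher together are given here because CpG is what the KDM2B zinc finger binds. They run from 250 bases before to 50 after the start, read 5′ to 3′ on the gene's strand, and are from RefSeq on GRCm38.p6, in which 7 of the 10 genes had an entry. *Kdm2b* had 4 entries at 2 places, and the one shown at each place was taken as the outermost for the long start and the first listed for the short start. Capitals mark each CG. *Bcor* lies at chrX:12160297-12160596 (minus), *Bcorl1* at chrX:48341108-48341407 (plus), the long *Kdm2b* start at chr5:122989050-122989349 (minus) and the short *Kdm2b* start at chr5:122900318-122900617 (minus).
Bcor: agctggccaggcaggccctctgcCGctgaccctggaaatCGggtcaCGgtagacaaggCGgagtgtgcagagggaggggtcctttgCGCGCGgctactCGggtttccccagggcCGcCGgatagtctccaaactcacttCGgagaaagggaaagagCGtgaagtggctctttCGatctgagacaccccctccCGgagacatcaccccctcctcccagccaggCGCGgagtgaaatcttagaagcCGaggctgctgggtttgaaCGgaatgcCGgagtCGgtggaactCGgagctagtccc
Bcorl1: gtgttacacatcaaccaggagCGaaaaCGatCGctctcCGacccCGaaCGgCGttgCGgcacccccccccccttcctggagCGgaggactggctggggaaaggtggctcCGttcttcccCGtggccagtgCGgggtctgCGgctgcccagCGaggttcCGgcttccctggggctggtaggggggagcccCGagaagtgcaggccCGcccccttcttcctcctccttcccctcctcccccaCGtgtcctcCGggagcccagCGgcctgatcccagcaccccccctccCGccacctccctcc
Kdm2b long start: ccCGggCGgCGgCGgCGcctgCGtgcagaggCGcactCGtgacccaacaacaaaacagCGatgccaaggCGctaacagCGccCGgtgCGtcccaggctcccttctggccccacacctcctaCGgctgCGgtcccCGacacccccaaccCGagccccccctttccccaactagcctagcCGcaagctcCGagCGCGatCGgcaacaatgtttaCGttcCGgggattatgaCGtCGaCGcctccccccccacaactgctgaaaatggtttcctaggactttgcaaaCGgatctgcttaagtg
Kdm2b short start: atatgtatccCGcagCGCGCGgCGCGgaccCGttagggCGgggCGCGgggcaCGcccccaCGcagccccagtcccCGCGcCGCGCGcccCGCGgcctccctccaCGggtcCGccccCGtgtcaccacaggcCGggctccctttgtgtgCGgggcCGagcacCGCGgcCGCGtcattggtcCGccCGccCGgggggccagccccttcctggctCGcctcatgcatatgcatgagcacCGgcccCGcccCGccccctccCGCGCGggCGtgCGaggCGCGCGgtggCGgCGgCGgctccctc

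CG, which reads the same on both strands, was found 21 times in the *Bcor* and in the *Bcorl1* window. The windows at the long and short *Kdm2b* starts held it 28 and 47 times, and the median over all 32851 promoters was 7. The entries not shown held 18 at the long start, 49 at the short start and 21 at a second *Bcor* start. Partners that were not called held 63 (*Usp7*), 37 (*Ring1*), 34 (*Skp1a*) and 30 (*Rnf2*), all more than the *Bcor* and *Bcorl1* windows, so a high count was not particular to the called genes. At least 21 were present in 24.8% of promoters, at least 28 in 14.2% and at least 47 in 1.44%. The counts describe the sequence and say nothing of binding in these cells.

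*Kdm2b* has several annotated starts and is read as a long and a short form. The long form carries a JmjC demethylase domain that the short form lacks, and both carry the CXXC zinc finger. In the order listed, exons 1 to 11 are shared, exon 12 opens the short transcript, and exons 13 to 25 belong to long transcripts alone. This split was chosen after values were seen and is given with no test. Exons of the long transcripts alone had 11.3 and 14.6 CPM in the LMPP libraries with reads on *Pcgf1* exons 2 to 7. In the libraries without them they had 25.4 and 20.3 CPM, so the groups did not overlap and the ratio of means was 1.76. The shared exons had 67.8 and 74.9 CPM with the reads and 89.5 and 86.9 CPM without, a ratio of 1.24 with no overlap. The first exon of the short transcript had 3.69 and 3.98 CPM with the reads and 3.97 and 3.63 CPM without, a ratio of 0.992 with overlap. This is 1 exon with 48 to 69 reads per library, whereas the 13 exons of the long transcripts alone had 153 to 441. Whether the difference was limited to the long form was not tested. Exons of the long transcripts alone made up 13.6% and 15.6% of the *Kdm2b* reads with the *Pcgf1* reads, and 21.3% and 18.3% without. In IdHPCs they had 4.47 and 7.25 CPM in controls and 6.53 and 3.34 CPM in *Pcgf1*-KO, with overlap.

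The higher values were spread along all 3 genes. Exons without overlap, higher where *Pcgf1* reads were absent, numbered 16 of 17 for *Bcor*, 11 of 15 for *Bcorl1* and 19 of 25 for *Kdm2b*. The share was 21.5% for the exons of all tested genes, called or not. The 3 genes were picked by the sums of these same exons, in the same libraries. The counts therefore show where along each gene the difference lay and add no separate support for it. No exon of the 3 genes lay lower without overlap.

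**Figure D3:**
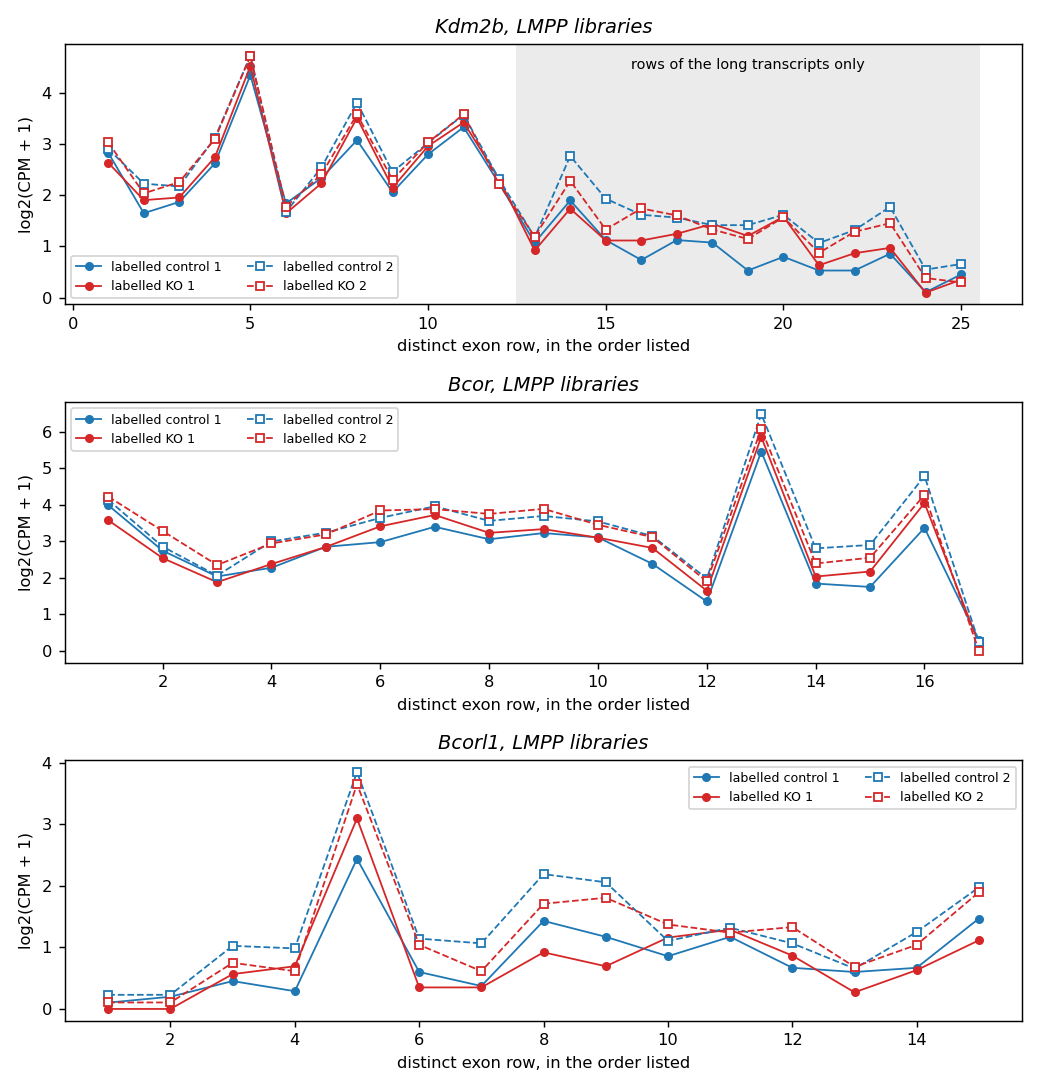
Log2(CPM + 1) of each distinct exon of *Kdm2b*, *Bcor* and *Bcorl1* in the 4 LMPP libraries, in the order listed. Solid lines with filled symbols are the libraries with reads on *Pcgf1* exons 2 to 7 and dashed lines with open symbols those without; the dashed lines run above the solid ones at 19 of 25, 16 of 17 and 11 of 15 exons.

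The other partners did not pass the test in this grouping. *Skp1a* had 159 and 138 CPM with the reads and 114 and 134 CPM without, lower without overlap, with a log2 difference of -0.26 (SE 0.10; limma, unadjusted p = 0.0292, adjusted p = 0.119). *Ring1* had 29.0 and 31.8 CPM with the reads and 27.7 and 27.6 CPM without, a log2 difference of -0.13 (95% interval -0.36 to 0.10). *Rnf2* had 31.0 and 29.5 CPM with and 32.6 and 33.0 CPM without, a log2 difference of 0.11 (95% interval -0.10 to 0.33). The catalytic pair thus showed differences of opposite sign, each without overlap and each with an interval that held 0. *Yaf2* had 22.5 and 22.0 CPM with the reads and 24.1 and 24.2 CPM without, a log2 difference of 0.12 (limma, adjusted p = 0.506). *Rybp* had 11.9 and 12.9 CPM with and 14.2 and 9.84 CPM without, and *Usp7* had 183 and 176 CPM with and 185 and 159 CPM without. Both overlapped, with log2 differences of -0.07 and -0.06.

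Other features moved with the same grouping. The 7 mature myeloid markers listed summed to 2326 to 2336 CPM with the *Pcgf1* reads and 2042 to 2082 CPM without, and 3 of the 6 tested were called lower, where 7.09% of all genes were. Of the 8 progenitor markers, *Kit* was called higher (log2 difference 0.60) and 2 were called lower, among them *Il7r* (-1.19), the IL7 receptor, beside 10.1% of all genes called higher and 7.09% lower. The progenitor sum was 2149 to 2217 CPM with and 2248 to 2282 CPM without. Of the 20 stromal markers, 5 were at 0, 1 of the 5 tested was called higher (*Pdgfrb*, log2 difference 0.56), and the sums were 68.7 to 75.1 CPM with and 87.7 to 105 CPM without. The 6 erythroid markers summed to 2.58 to 3.71 CPM with and 5.12 to 7.49 CPM without, and 1 of the 2 tested, the erythropoietin receptor *Epor* (1.13), was called higher. Their part in the values of *Bcor*, *Bcorl1* and *Kdm2b* was not tested. *Xist* was 1553 to 2056 CPM over the 4 libraries and overlapped between the groups, and the Y-linked *Eif2s3y*, *Uty* and *Kdm5d* were at 0 in all of them.

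Ratios within a library compare interchangeable partners without the scaling of the table. Per kb, *Rybp* to *Yaf2* was 1.04 and 0.921 in control IdHPCs and 0.987 and 0.861 in *Pcgf1*-KO IdHPCs. In LMPPs it was 0.223, 0.246, 0.246 and 0.170 in the libraries labelled control 1, control 2, KO 1 and KO 2. Every IdHPC library thus lay above every LMPP library, a difference that was not tested because the tables were processed apart.

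*Bcor* to *Bcorl1* per kb was 5.61 and 4.54 in control IdHPCs and 3.69 and 2.65 in *Pcgf1*-KO IdHPCs. In LMPPs it was 10.1 and 10.8 with the *Pcgf1* reads and 7.66 and 8.10 without. The ratio was lower in *Pcgf1*-KO than in control IdHPCs, and lower in LMPPs without the reads than with them, with no overlap. The exact two-sided permutation test gave p = 0.333 for each of these, the smallest that 2 libraries against 2 allow. By label, the LMPP ratio was 10.1 and 7.66 under control and 10.8 and 8.10 under KO. These groups overlapped, with the higher mean under the KO label (exact two-sided permutation p = 0.667). *Ring1* to *Rnf2* per kb ran from 0.921 to 1.73 in IdHPCs, with the highest value in the second *Pcgf1*-KO library, and from 0.993 to 1.28 in LMPPs. In LMPPs it was 1.11 and 1.28 with the *Pcgf1* reads and 1.01 and 0.993 without, lower without overlap (exact two-sided permutation p = 0.333).

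**Figure D4:**
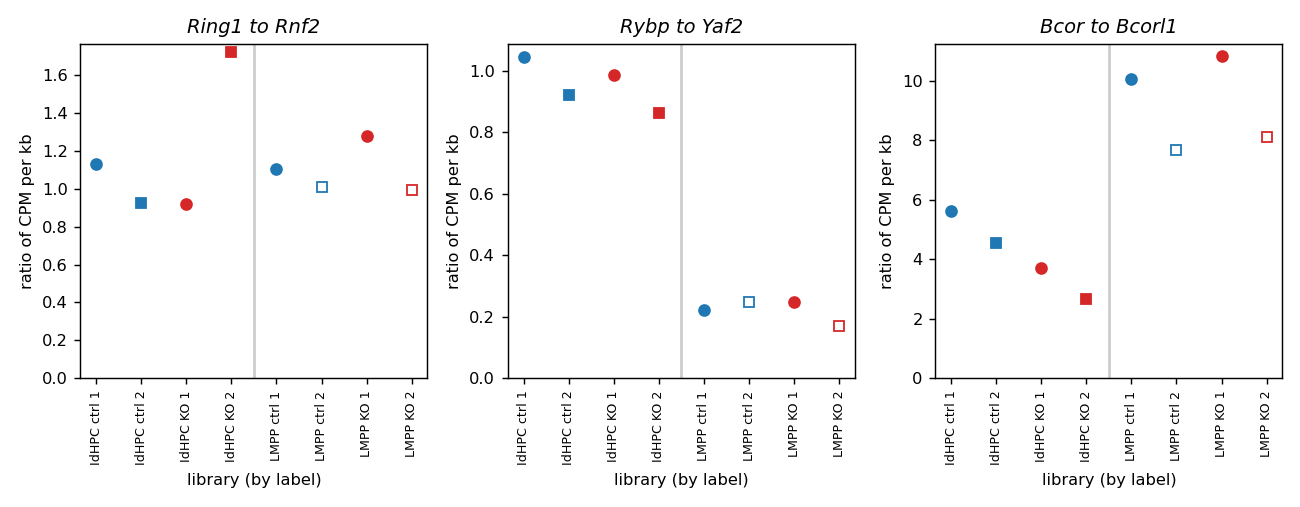
Ratio of CPM per kb between interchangeable partners in each of the 8 libraries; blue marks the control label, red the KO label, circles replicate number 1, squares number 2, and open symbols libraries with 0 reads on *Pcgf1* exons 2 to 7. *Rybp* to *Yaf2* is 0.861 to 1.04 in IdHPCs and 0.170 to 0.246 in LMPPs.

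Around the complex, 44 further genes in 6 lists were examined: the other PCGF subunits, canonical PRC1, other variant PRC1 complexes, partners of the members outside PRC1, enzymes that remove ubiquitin from H2A, and subunits of PRC2 that read it. In IdHPCs 0 of the 43 tested were called by limma (lowest adjusted p = 0.269, and 6, or 14.0%, had an unadjusted p under 0.05, beside 14.5% of all genes), 11 lay above 0 and the median log2 fold change was -0.17. Among the PCGF relatives, *Pcgf2* was highest at 0.28 and *Pcgf3* lowest at -0.27. In canonical PRC1, *Phc1* and *Phc3*, which encode Polyhomeotic subunits, were at 0.35 and -0.63. In the other variant complexes, the ends were *Csnk2b*, the regulatory subunit of casein kinase, at 0.19 and *Mga*, the scaffold of the PCGF6 complex, at -0.61. Outside PRC1 they were *Rbx1*, of the cullin ligases, at 0.39 and the repressor *Bcl6*, which recruits BCOR, at -0.67. The deubiquitination list ran from *Usp16* at 0.03 to *Asxl2* at -0.65, and the PRC2 subunits *Aebp2* and *Jarid2* were at -0.39 and -0.58. With a single library left out, they ran from -0.69 to -0.09 for *Aebp2* and from -0.85 to -0.30 for *Jarid2*. Without the first *Pcgf1*-KO library, 3 of 43 passed the limma test (6.98%), among them *Mga* (-0.93) and *Asxl2* (-1.05), beside 6.49% of all genes. That fit has 1 *Pcgf1*-KO library, which is assumed to vary like the controls.

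In LMPPs by label, 0 of the 44 were called and 0 had an unadjusted limma p under 0.05. These label groups are mixed, as described above. Between the libraries without and with reads on *Pcgf1* exons 2 to 7, 6 of 44 were called higher (13.6%, beside 10.1% of all genes) and 2 lower (4.55%, beside 7.09%). Both shares were near those of all genes. *Pcgf2*, a PCGF subunit of canonical PRC1, had 15.2 and 17.6 CPM with the reads and 31.6 and 27.8 CPM without (log2 difference 0.82; limma, adjusted p = 0.00142). *Cbx7*, a chromodomain subunit that reads H3K27me3, had 11.8 and 12.2 CPM with and 21.6 and 20.4 CPM without (0.76; limma, adjusted p = 0.00177). The groups did not overlap for either gene. *Phc1* of canonical PRC1 was also higher (0.48; limma, adjusted p = 0.00865). *Bcl6* (0.51; adjusted p = 0.0287 by limma), *Scmh1* of canonical PRC1 (0.34; 0.0413) and *Jarid2* (0.30; 0.0481) were called higher too, but these calls were lost under 6, 8 and 10 of the 15 alternatives run. *Mdm2*, the ligase of p53 and a substrate of USP7, had 91.5 and 90.7 CPM with the reads and 55.0 and 56.8 CPM without, a log2 difference of -0.70 (limma, adjusted p = 3.76e-04). *Auts2*, of the PCGF3 and PCGF5 complexes, was lower at -0.73 (limma, adjusted p = 0.0221), a call lost under 4 of the 15 alternatives, among them the fit without the library labelled KO 2 (-0.50, adjusted p = 0.128). By list, 1 of 5 other PCGF genes, 3 of 9 canonical PRC1 genes, 0 of 16 genes of the other variant complexes, 1 of 7 partners outside PRC1, 0 of 5 deubiquitination genes and 1 of 2 PRC2 subunits were called higher, counts too small to set against the 10.1% of all genes.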

How the data were processed

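The authors deposited CPM values for IdHPC and LMPP RNA-seq. The study's methods give alignment to mm9 with HISAT2, counting with Rsubread and CPM from edgeR, whereas the submitters' processing notes name TopHat2 2.0.13. The tables list 284716 exons. Exons identical to the one before under the same symbol were counted once and the rest summed per symbol. All values (100%) were whole multiples of 1 read within 0.01, so reads could be recovered.

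Genes reaching a CPM of 1 in any library (minimum 1) were tested by limma 3.58.1 (R 4.3.3) on log2(CPM + 1), with trend and Benjamini-Hochberg adjustment at 0.05. Alternatives were a pseudocount of 0.1, other filters, scalings and exon sums, each library left out, the replicate number as a term, and edgeR 4.0.16 and DESeq2 1.42.0 on recovered reads. On counts simulated with log2 changes of 2 and a dispersion of 0.02, limma recovered 200 of 200 changed genes, which does not speak to smaller changes, with 15 false calls among 12272 IdHPC genes and 8 among 12136 LMPP genes. The genes named were the 10 members, and in the lists those called or at either end in IdHPCs. Members and lists were chosen with earlier results of these data known. The split of *Kdm2b* and the length from all annotated exons were chosen after seeing the data.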

Additional observations from a re-analysis of the deposited data

Results flagged for a closer look

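*Bcor* had values of opposite sign in 2 comparisons, of which only that in LMPPs passed the test. Its log2 difference was -0.49 between *Pcgf1*-KO and control IdHPCs (limma, adjusted p = 0.401), where both *Pcgf1*-KO libraries lay below both controls, as did 21.4% of all genes, and 0.59 between the LMPP libraries without and with reads on *Pcgf1* exons 2 to 7, where both without lay above both with. The difference between the comparisons was not tested, and the LMPP groups follow reads, not labels.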

How the results depend on the processing

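Each group held 2 libraries, so differences smaller than the intervals given could not be resolved. By label, each LMPP group held 1 library with and 1 without reads on *Pcgf1* exons 2 to 7. A count of 0 in that comparison therefore cannot show whether partners differ when these reads are absent, under any alternative. The count of partners called stayed at 0 in IdHPCs and 0 in LMPPs by label under every alternative run, and was 2 to 4 in LMPPs by reads, with *Skp1a* as the fourth without the library labelled KO 1. There, *Bcor* and *Bcorl1* were called under every alternative, and *Kdm2b* was lost without a mean-variance trend (adjusted p = 0.0751) and in the 2 leave-one-out fits named above.

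The replicate numbers gave correlations of 0.147 (IdHPC) and 0.705 (LMPP) over 2 pairs and the labels state no pairing. In LMPPs the number coincides with the grouping by reads, so the value of 0.705 is no separate evidence of pairing. With the number as a block, *Pcgf1* in IdHPCs passed the test (adjusted p = 0.0252 by limma), 673 genes were called in place of 61, and in LMPPs by label 3 in place of 0; 0 partners were called. By reads, no such block could be fitted because number and grouping coincide.

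For all IdHPC genes, other counts were 0 with no filter, 101 with median ratio scaling, 125 (edgeR quasi-likelihood), 609 (exactTest), 494 (DESeq2), 3 without the 3′ exon and 15 to 787 with a library left out. By reads, 2091 LMPP genes became 1164 without the 3′ exon and 1330 to 1975 with a library left out.

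Without the 3′ exon, LMPP log2 differences turned to 0.041 (*Yaf2*) and 0.15 (*Rnf2*) by label and -0.0060 (*Yaf2*, then the median of the partners) by reads, and *Usp16* in IdHPCs to -0.0084. By label, *Pcgf1* turned to -0.10 (edgeR quasi-likelihood), -0.11 (exactTest) and -0.11 (DESeq2), and *Skp1a* to -0.0017 and -0.0018 in edgeR.

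With a library left out, signs turned in IdHPCs for *Bcorl1* (-0.0034 to 0.37), *Kdm2b* (-0.26 to 0.12), *Ring1* (-0.094 to 0.19), *Rnf2* (-0.53 to 0.052), *Rybp* (-0.45 to 0.15), *Yaf2* (-0.26 to 0.13), *Pcgf3* (-0.85 to 0.31) and *Usp16* (-0.16 to 0.21). By label they turned for *Bcor* (-0.36 to 0.45), *Bcorl1* (-0.62 to 0.53), *Kdm2b* (-0.22 to 0.30), *Pcgf1* (-0.96 to 1.11), *Ring1* (-0.036 to 0.16), *Rnf2* (-0.11 to 0.051), *Skp1a* (-0.22 to 0.25) and *Yaf2* (-0.081 to 0.055), and by reads for *Rybp* (-0.31 to 0.18) and *Usp7* (-0.17 to 0.044). The partners' median ran from -0.26 to 0.052 in IdHPCs (-0.27 without the 3′ exon, against -0.07), from -0.15 to 0.051 by label and from 0.078 to 0.13 by reads.

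The order of levels kept 6 of 10 ranks without the 3′ exon, 3 with all listed exons and 4 with the length of all annotated exons in IdHPCs, and 6 and 3 with the last 2 in LMPPs. The cause was not tested for any of these.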
